A study of Homo sapiens with 6 samples.

Results

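The genes described here are 50 ribosome biogenesis factors: nucleolar processing factors, proteins of small nucleolar particles and assembly factors of both ribosomal subunits. They were taken by gene symbol from the 23024 genes listed, with ribosomal proteins, RNA polymerases and DDX or DHX helicases left out. All 50 were found, and all 50 were among the 11152 genes tested, whose values averaged at least 1 FPKM. They were measured by RNA sequencing of total RNA from transfected 5637 cells, an established human bladder carcinoma line. The 3 libraries named NC carry the genotype label WT, and the 3 libraries named sh-RAD51C are labelled as RAD51C knockdown by a short hairpin RNA. The labels leave out the meaning of NC, the hairpin sequence, and whether libraries came from separate cultures or 1 clone, so p-values cover only how these libraries vary, and that variation may be technical.

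Ribosomes are assembled in the nucleolus around the RNA that RNA polymerase I transcribes from the ribosomal DNA. Box C/D particles guide methylation of that RNA and H/ACA particles guide pseudouridine formation. A large processome then folds and cuts the precursor of the small subunit, while separate assembly factors mature the large subunit. Many of these genes are textbook targets of the growth-promoting transcription factor MYC, which binds the E-box.

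RAD51C itself was at 14.7, 13.2 and 13.6 FPKM (a level scaled by gene length and by library total, so that genes can be compared per length) in NC 1, 2 and 3, and at 3.51, 3.09 and 2.95 FPKM in sh-RAD51C 1, 2 and 3. The groups did not overlap (exact two-sided permutation p = 0.1, the smallest that 3 libraries against 3 allow). Of the epithelial markers checked, all 7 were expressed, at a sum of 2872 to 2963 FPKM in NC and 2637 to 2742 FPKM in sh-RAD51C. Within that sum KRT5 and KRT19 were called lower, at 0.439 and 0.635 of the NC mean, as was CDH1, and KRT7, KRT18, EPCAM and KRT8 were called higher, KRT7 by 1.68-fold. The urothelial genes GATA3 and PPARG were expressed and called higher, GATA3 by 1.62-fold, whereas UPK2, UPK3A and KRT20 were under 1 FPKM. The 5 fibroblast markers found summed to 9.74 to 10.5 FPKM in NC and 6.62 to 7.38 FPKM in sh-RAD51C, nearly all of it COL1A1, with COL1A2 and DCN near 0. The 5 endothelial and 2 blood markers found summed to under 1 FPKM in every library. Inferred depth lay between 36068282 and 38079825 reads in all 6 libraries. In sh-RAD51C 1, deviations from the group mean fell with gene length (Spearman rho = -0.54 across 11152 genes, which are not independent replicates). The values were 0.23 and 0.42 in sh-RAD51C 2 and 3 and -0.05 to 0.06 in NC. Deviations from a mean of 3 libraries offset each other, so these values are linked and cannot single out 1 library.

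Promoter windows of the factors are shown first, as a description of sequence. RefSeq windows on GRCh38.p14, from 250 bases before the gene start to 50 bases from the start onward, were matched for 42 of the 50 genes. The 8 others were NOP58, NOLC1, TCOF1, RRP12, BOP1, RRS1, RRP1B and URB2. The stretches printed are from the 4 factors with the largest rise whose window holds the E-box CACGTG. Each runs from 70 bases before the start through the first 30 bases of the gene, 5′ to 3′ on the strand of the gene, with the E-box in capitals. They lie at chr2:68157818-68157917 (plus strand), chr3:51941875-51941974 (minus strand), chr10:94362910-94363009 (minus strand) and chr2:28894597-28894696 (plus strand).
PNO1: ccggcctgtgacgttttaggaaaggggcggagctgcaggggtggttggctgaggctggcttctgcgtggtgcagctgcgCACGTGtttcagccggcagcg
RRP9: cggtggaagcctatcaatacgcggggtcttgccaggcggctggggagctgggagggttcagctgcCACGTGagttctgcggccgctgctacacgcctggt
NOC3L: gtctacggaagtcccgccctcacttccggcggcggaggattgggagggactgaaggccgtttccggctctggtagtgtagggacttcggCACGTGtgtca
WDR43: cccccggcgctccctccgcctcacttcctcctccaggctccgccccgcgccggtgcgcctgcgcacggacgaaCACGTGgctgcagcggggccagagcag

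The E-box was frequent in these windows and sat close to the gene start used for them. It was present in 19 of 42 factor promoters (45.2%), in 23 of 78 promoters of other assembly factors (29.5%), in 933 of 9031 promoters of genes tested (10.3%) and in 2030 of 27305 promoters of that length in all (7.43%). CACGTG reads the same on both strands. Counting the first base of the gene as 0, the match began at 9 in PNO1, -5 in RRP9, 19 in NOC3L and 3 in WDR43. In 17 of the 19 factor promoters with an E-box (89.5%) a match began between -25 and 49. The same held for 14 of 23 other assembly factors with the motif (60.9%) and for 226 of 914 remaining genes tested (24.7%), a window chosen after the positions were seen. Positions depend on the start used, which equalled the RefSeq gene start in 37 of the 42 factor windows. GENCODE places the starts of PNO1, RRP9, NOC3L and WDR43 further upstream. Counted from there, their matches would begin further into the gene, that of PNO1 beyond 49. A match is a description of letters and not of binding.

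**Figure D1:**
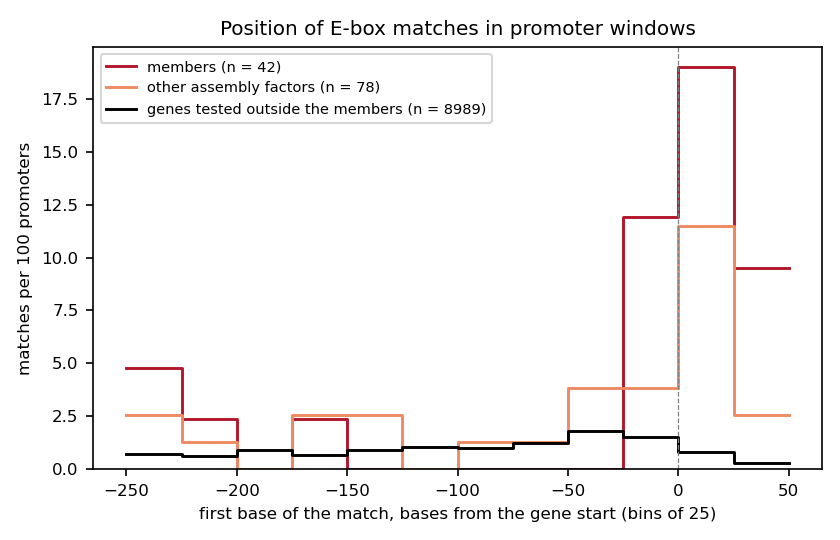
Matches to CACGTG per 100 promoters (vertical axis) by distance of the first base of the match from the gene start in bins of 25 bases (horizontal axis), for the 42 factor promoters, 78 promoters of other assembly factors and 8989 promoters of the remaining genes tested. The factor line stands highest in the bin that begins at the start, at 19.0 matches per 100 promoters against 0.801 for the remaining genes.

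The change in expression was not limited to promoters with the motif. Log2 fold changes ranged from 0.04 to 0.80 (median 0.54) in the 19 factors with an E-box and from 0.06 to 0.80 (median 0.41) in the 23 without. The split leaves out the 8 factors without a window. These ran from 0.33 (RRP1B) to 0.83 (RRS1) and include RRP12 (0.82) and BOP1 (0.76). FBL, with the motif at 6, had the smallest difference of all 50 factors (0.04), and PNO1 (0.80) was highest of those with it. Of those without it in this window, LYAR was highest (0.80) and NHP2 lowest (0.06). Whether the motif bears on the change was not tested. Over all genes tested, the median was 0.02 for the 933 with the motif and -0.01 for the 8098 without. The GC box GGGCGG, searched on both strands, was in 32 of 42 factor promoters (76.2%) and in 71.8% of promoters of genes tested. A site named for the transcription factor NRF1 was also searched. It was in 3 of 42 factor promoters (7.14%), against 218 of 9031 promoters of genes tested (2.41%). The E-box was thus not the only motif searched with a higher share in factor promoters, although the NRF1 share rests on only 3 promoters.

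Of the 50 factors, 48 were higher in sh-RAD51C, 0 were lower and 2 were not called (limma adjusted p under 0.05). Over all 11152 genes tested, 23.2% were higher and 26.2% were lower. The factors had log2 fold changes from 0.04 to 0.83 with a median of 0.48, against a median of -0.01 over all genes tested. Log2 fold changes here are differences in log2(FPKM + 1). In bulk libraries, more RNA of a gene per cell and more cells with a high level cannot be told apart. A called rise of at least 0.5 was found for 23 factors (46.0%) and for 3.53% of all genes tested. In 48 factors every sh-RAD51C library was above every NC library, which was the case for 27.6% of all genes tested. Summed over the 50 genes, the level was 2336, 2352 and 2388 FPKM in NC 1, 2 and 3 and 3075, 3075 and 3000 FPKM in sh-RAD51C 1, 2 and 3, a ratio of means of 1.29. The sum is dominated by NPM1, FBL and NCL, which rose less than the typical factor or were not called.

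**Figure D2:**
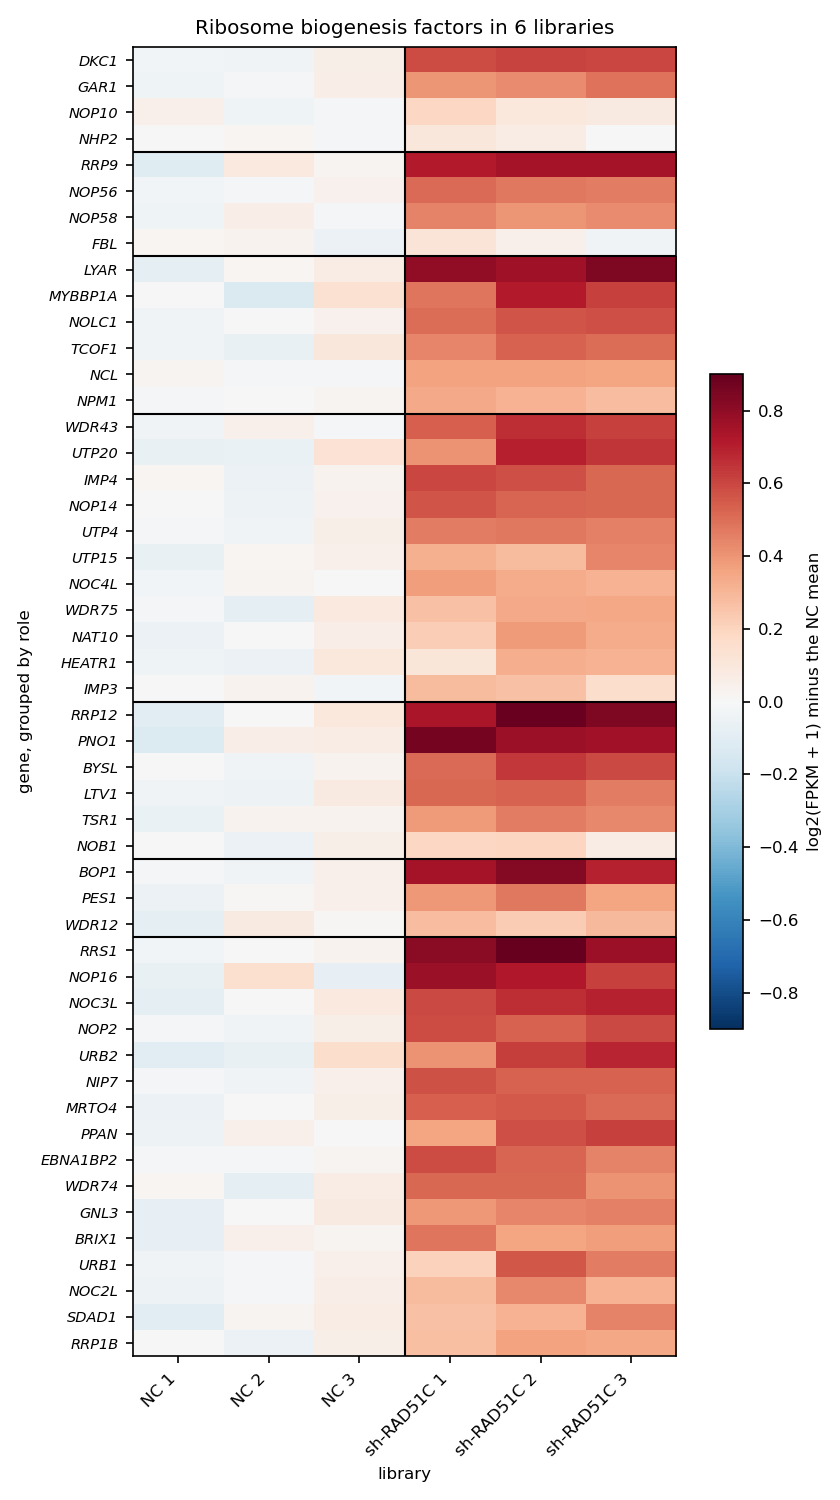
Each cell is log2(FPKM + 1) of 1 factor (rows, grouped by role) in 1 library (columns) minus the mean of the 3 NC libraries. The sh-RAD51C columns are red for nearly every factor, with a median difference of 0.44, 0.52 and 0.46 in libraries 1, 2 and 3, and the palest rows are FBL and NHP2.

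No factor had its highest value in an NC library or its lowest in a sh-RAD51C library. The highest of the 6 values was in sh-RAD51C 1 for 15 factors, in sh-RAD51C 2 for 23 and in sh-RAD51C 3 for 12. Among the NC libraries, NC 3 was above the NC mean for 42 factors, against 9 for NC 1 and 19 for NC 2. Reads behind a factor ran from 236 in a library for PPAN to 55103 for NPM1.

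The H/ACA particle, which forms pseudouridine, was divided. DKC1, its pseudouridine synthase, was at 60.9, 60.5 and 64.3 FPKM in NC 1, 2 and 3 and at 93.4, 94.7 and 94.3 FPKM in sh-RAD51C 1, 2 and 3. The groups were far apart, and DKC1 (chromosome X, 154762742 to 154777689, plus strand, GRCh38) rose by 0.60 ± 0.0356 (SE) on the log2 scale (limma adjusted p = 2.42e-07). GAR1, a glycine and arginine rich subunit, was at 25.3, 25.6 and 27.2 FPKM in NC and 34.5, 35.2 and 36.9 FPKM in sh-RAD51C, without overlap (a log2 difference of 0.44 ± 0.0423, limma adjusted p = 9.41e-06). NHP2, an RNA-binding core subunit, was at 104.0, 105.0 and 102.7 FPKM in NC and 111.6, 109.0 and 104.2 FPKM in sh-RAD51C. The groups overlapped, because sh-RAD51C 3 lay below NC 2, and NHP2 did not pass the test (log2 fold change 0.06 ± 0.0359, limma adjusted p = 0.202). NOP10, the smallest subunit, was at 144, 136 and 139 FPKM in NC and 159, 149 and 148 FPKM in sh-RAD51C. It passed narrowly (log2 fold change 0.12 ± 0.0395, limma adjusted p = 0.0271) and lost the call in 8 of 16 alternatives, among them the omission of NC 2 (limma adjusted p = 0.117), NC 3 (0.074) or sh-RAD51C 1 (0.0566).

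The ratios within the particle shifted accordingly. DKC1 to NOP10 was 0.422, 0.444 and 0.464 in NC 1, 2 and 3 and 0.589, 0.635 and 0.639 in sh-RAD51C 1, 2 and 3. DKC1 to NHP2 went from 0.596 ± 0.0264 to 0.870 ± 0.034 (SD, n = 3 each). DKC1 to GAR1 went from 2.38 ± 0.0253 to 2.65 ± 0.0834 (SD, n = 3 each). None of these 3 ratios overlapped between the groups. For 11 ratios chosen after the values were seen, the exact two-sided permutation p was 0.1 at the smallest, or 0.138 after Benjamini-Hochberg adjustment over the 11. The inferred lengths are 2958 bases for DKC1, 1051 for GAR1, 908 for NHP2 and 507 for NOP10, so the ratios also compare a long gene with short ones. With each library's trend with length and GC content removed, the log2 fold change was 0.10 for NHP2 (limma adjusted p = 0.0071) and 0.14 for NOP10 (0.00285). NHP2 was thus called higher in that alternative. The exons of NHP2 overlap those of RMND5B.

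The box C/D particle, which methylates the RNA, was also divided, with FBL not called and 3 other proteins higher. RRP9, the U3-specific subunit, was at 10.5, 12.2 and 11.6 FPKM in NC and 19.4, 19.9 and 19.9 FPKM in sh-RAD51C. Its groups did not overlap, with a rise of 0.73 ± 0.0526 (SE) on the log2 scale (limma adjusted p = 9.96e-07). The core protein NOP56 was at 123, 123 and 128 FPKM in NC and 178, 174 and 172 FPKM in sh-RAD51C, a log2 fold change of 0.48 ± 0.0344 (limma adjusted p = 9.76e-07), and its partner NOP58 rose 1.35-fold in mean FPKM. FBL (chromosome 19, 39834458 to 39846414, minus strand), the methyltransferase fibrillarin, was at 243.5, 245.8 and 231.8 FPKM in NC and 260.2, 248.4 and 235.4 FPKM in sh-RAD51C. The groups overlapped, and the log2 fold change of 0.04 ± 0.0435 was not called (limma adjusted p = 0.425; 0.103 with length and GC trends removed). NOP56 to FBL went from 0.520 ± 0.0294 to 0.705 ± 0.0249 and NOP58 to FBL from 0.193 ± 0.00646 to 0.252 ± 0.0116 (SD, n = 3 each), neither with overlap. The ratio of NOP58 to NOP56 did overlap, at 0.368, 0.391 and 0.356 in NC and 0.358, 0.353 and 0.363 in sh-RAD51C.

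**Figure D3:**
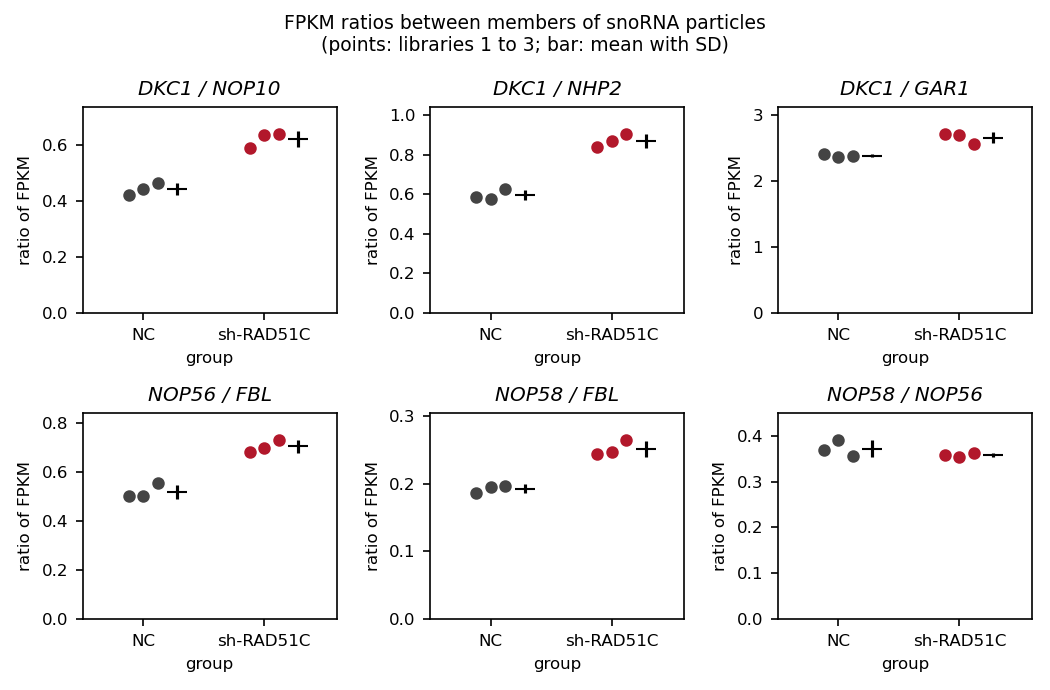
Ratios of FPKM between 2 genes of a particle (vertical axes, from 0) in the NC and sh-RAD51C libraries, with points for libraries 1 to 3 and bars for the mean and SD. The ratios of DKC1 to NOP10, NHP2 and GAR1 and of NOP56 and NOP58 to FBL are higher in every sh-RAD51C library, while NOP58 to NOP56 overlaps.

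All 6 genes of the nucleolar scaffold and of ribosomal DNA transcription rose (median 0.52 on the log2 scale). LYAR (chromosome 4, 4267701 to 4290169, minus strand), a nucleolar regulator of cell growth, was at 8.20, 8.93 and 9.28 FPKM in NC and 16.0, 15.6 and 16.6 FPKM in sh-RAD51C. That is a 1.82-fold higher mean without overlap (log2 fold change 0.80 ± 0.052, limma adjusted p = 4.75e-07). MYBBP1A, a nucleolar MYB-binding protein, was at 14.4, 13.1 and 15.9 FPKM in NC and 20.5, 24.2 and 22.6 FPKM in sh-RAD51C. Its libraries were more scattered, and the groups remained separate (0.60 ± 0.0716, limma adjusted p = 4.41e-05). NPM1, the histone chaperone nucleophosmin and the most abundant factor, was at 520.3, 524.5 and 534.8 FPKM in NC and 667.5, 655.7 and 638.9 FPKM in sh-RAD51C. Its log2 fold change of 0.31 ± 0.0372 was the smallest of this group (limma adjusted p = 4.49e-05). GENCODE names 68 pseudogenes after 12 of the 50 factors, 45 of them after NPM1, so reads of NPM1 could be split with copies.

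Nucleolin (NCL), which binds the precursor RNA, rose 1.29-fold, and its ratio to NPM1 overlapped between the groups, at 0.429 ± 0.0118 in NC and 0.444 ± 0.00946 in sh-RAD51C (SD, n = 3 each). NOLC1, a chaperone of small nucleolar particles, and TCOF1, the treacle protein that links polymerase I transcription to RNA modification, are related acidic repeat proteins and rose 1.47-fold and 1.42-fold. Their ratio overlapped too, at 1.69 ± 0.0766 and 1.74 ± 0.0308 (SD, n = 3 each).

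The small subunit processome rose as a group of 11, with 11 called higher and a median of 0.35. WDR43, a subunit of the early UTP-A complex, was at 24.6, 26.0 and 25.02 FPKM in NC and 37.0, 40.5 and 39.2 FPKM in sh-RAD51C (a log2 difference of 0.61 ± 0.0428, limma adjusted p = 9.16e-07). UTP20, a very long scaffold protein, was at 5.45, 5.51 and 6.39 FPKM in NC and 7.94, 10.01 and 9.59 FPKM in sh-RAD51C (0.58 ± 0.0821, limma adjusted p = 0.000154). Both were separated between groups, although sh-RAD51C 1 was the lowest knockdown library for each. IMP3, which bridges U3 RNA and the precursor, was at 40.5, 41.7 and 39.9 FPKM in NC and 49.9, 49.1 and 45.4 FPKM in sh-RAD51C. It had the smallest difference of the group (0.24 ± 0.0422, limma adjusted p = 0.00081).

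IMP4, the partner of IMP3 in the MPP10 complex, rose 1.51-fold, and the ratio of IMP4 to IMP3 went from 0.363 ± 0.0202 to 0.465 ± 0.00862 (SD, n = 3 each) without overlap. The UTP-A subunits UTP4, UTP15 and WDR75 rose 1.39-fold, 1.34-fold and 1.27-fold, and HEATR1 rose by 0.25 on the log2 scale. HEATR1 came close to overlap, with 13.7 FPKM in NC 3 and 13.8 FPKM in sh-RAD51C 1, and was not called without the filter on low values (limma adjusted p = 0.0594). NOP14 and NOC4L, which bind each other, rose 1.48-fold and 1.28-fold, and NAT10, the RNA cytidine acetyltransferase, rose 1.25-fold.

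Late assembly of the small subunit held some of the largest rises and 1 of the smallest, with 6 of 6 called higher and a median of 0.54. RRP12 (chromosome 10, 97356358 to 97426076, minus strand), an export and maturation factor, was at 5.11, 5.54 and 5.99 FPKM in NC and 9.86, 11.1 and 10.7 FPKM in sh-RAD51C, a 1.90-fold higher mean (log2 fold change 0.82 ± 0.0635, limma adjusted p = 1.8e-06). PNO1, which holds the pre-ribosomal RNA near its final cut, was at 5.90, 6.84 and 6.87 FPKM in NC and 12.7, 11.8 and 11.7 FPKM in sh-RAD51C (0.80 ± 0.0614, limma adjusted p = 1.74e-06). Neither gene overlapped between groups. NOB1, the endonuclease that makes that cut and a binding partner of PNO1, was at 25.7, 24.7 and 26.6 FPKM in NC and 29.3, 29.5 and 26.9 FPKM in sh-RAD51C. Its groups barely separated (0.15 ± 0.0465, limma adjusted p = 0.0205). The call was lost in 7 of 16 alternatives. Among them were the omission of NC 1 (limma adjusted p = 0.0516), NC 2 (0.093), sh-RAD51C 1 (0.0549) or sh-RAD51C 2 (0.0748). BYSL (bystin), LTV1 and the GTPase-like TSR1 rose 1.53-fold, 1.43-fold and 1.36-fold.

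The PeBoW complex, which processes the precursor of the large subunit RNA, was higher in all 3 subunits but to different degrees. BOP1 (chromosome 8, 144262102 to 144291370, minus strand) was at 34.2, 33.7 and 35.7 FPKM in NC and 58.8, 62.0 and 56.5 FPKM in sh-RAD51C (a log2 difference of 0.76 ± 0.0425, limma adjusted p = 1.57e-07). PES1, the pescadillo protein, was at 32.3, 33.7 and 34.6 FPKM in NC and 44.3, 46.9 and 43.2 FPKM in sh-RAD51C (0.41 ± 0.0425, limma adjusted p = 1.64e-05). BOP1 and PES1 were thus at about equal levels per length in NC, with a ratio of 1.06, 0.999 and 1.03 in NC 1, 2 and 3, and at 1.33, 1.32 and 1.31 in sh-RAD51C 1, 2 and 3. WDR12 was far lower, at 4.09, 4.71 and 4.45 FPKM in NC and 5.55, 5.34 and 5.64 FPKM in sh-RAD51C (0.27 ± 0.0601, limma adjusted p = 0.00359). The exons of PES1 overlap TCN2 and those of WDR12 overlap CARF, while none overlapped for BOP1.

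All 16 factors of large subunit assembly were higher, from 0.33 to 0.83 on the log2 scale with a median of 0.52. RRS1 (chromosome 8, 66429028 to 66430733, plus strand), which helps load the 5S particle, was at 30.8, 31.3 and 32.1 FPKM in NC and 55.8, 59.3 and 54.3 FPKM in sh-RAD51C. It had the largest log2 fold change of the 50 factors on log2(FPKM + 1) (0.83 ± 0.0407, limma adjusted p = 6.66e-08). By ratio of mean FPKM it rose 1.80-fold, less than the lower-level factors RRP12 (1.90-fold), PNO1 (1.85-fold) and LYAR (1.82-fold). NOP16, a nucleolar protein of early precursors, was at 25.3, 29.5 and 25.2 FPKM in NC and 46.4, 44.5 and 41.3 FPKM in sh-RAD51C (0.71 ± 0.0618, limma adjusted p = 4.3e-06). RRS1 and NOP16 were both clearly separated between groups. RRP1B, a nucleolar partner of protein phosphatase, rose least of the group, at 28.2, 27.2 and 29.4 FPKM in NC and 34.2, 36.6 and 36.2 FPKM in sh-RAD51C (0.33 ± 0.0423, limma adjusted p = 8.58e-05).

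The other 13 lay between these. NOC3L, a partner of NOC2L, rose 1.68-fold and NOC2L itself 1.28-fold. The RNA methyltransferase NOP2 rose 1.52-fold and NIP7, which joins precursors of the large subunit, rose 1.48-fold. URB2 and URB1 rose 1.58-fold and 1.37-fold, with URB1 at 8.20, 8.29 and 8.71 FPKM in NC and 9.86, 12.8 and 11.9 FPKM in sh-RAD51C. PPAN, the least abundant factor, rose from 2.71 ± 0.118 to 4.32 ± 0.505 FPKM (SD, n = 3), and its exons overlap those of P2RY11 and a read-through transcript of both. MRTO4, a placeholder for a stalk protein on the precursor, rose 1.46-fold, EBNA1BP2 1.45-fold, WDR74 1.42-fold, the GTPase nucleostemin (GNL3) 1.35-fold, BRIX1 1.33-fold and SDAD1 1.28-fold.

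**Figure D4:**
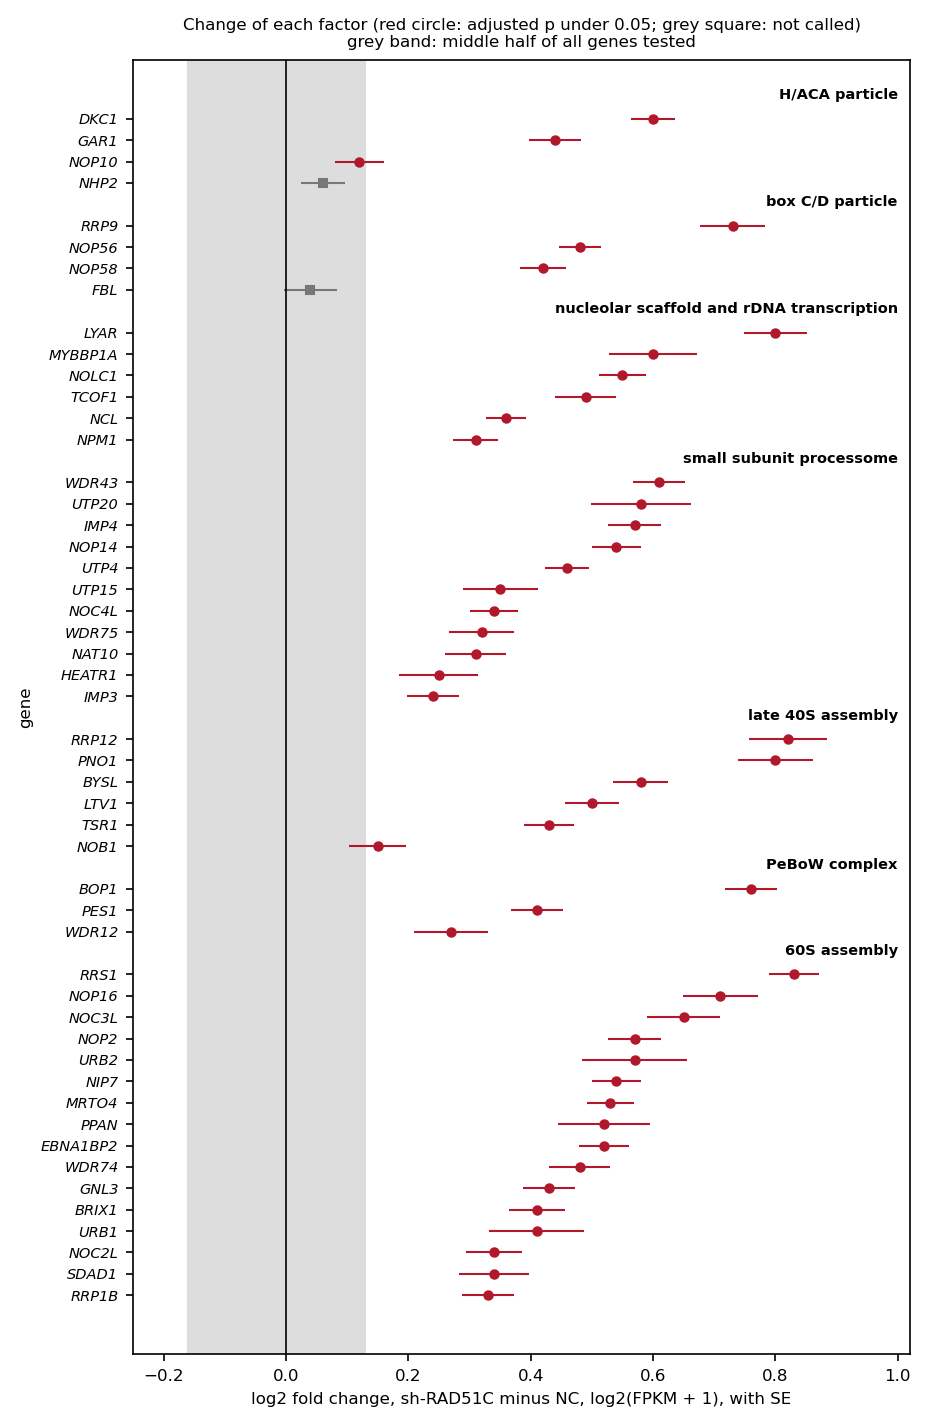
Log2 fold change of each factor (horizontal axis, sh-RAD51C minus NC on log2(FPKM + 1), bars are SE) by role. Red circles are the 48 called higher, grey squares are NHP2 and FBL, and the grey band runs from the lower to the upper quartile of all genes tested (-0.16 to 0.13).

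Level, length and gene structure were compared across the factors as a description. Factors with a higher NC level tended to have a smaller log2 fold change (Pearson r = -0.43, Spearman rho = -0.36 over 50 genes, which share the same libraries). Gene length showed little relation to it (Pearson r = 0.20, Spearman rho = 0.12). Within each group the libraries differed by length. Deviations of the factors from the group mean fell with length in sh-RAD51C 1 (rho = -0.67), against 0.37 and 0.60 in sh-RAD51C 2 and 3. In NC 1, 2 and 3 the values were -0.23, -0.34 and 0.56. The 10 longest factors, of 4344 to 10818 bases, had their lowest sh-RAD51C value in sh-RAD51C 1 for 9 of 10 and their highest NC value in NC 3 for 10 of 10. All 10 were called higher, as were 8 of the 10 shortest, of 507 to 1685 bases. With length and GC trends removed 49 of 50 factors were called higher, and without sh-RAD51C replicate 1 the count was 46.

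Of the 50 factor genes, 9 (18.0%) hold small nucleolar or Cajal body RNA genes within their own bounds and on their own strand in GENCODE release 29, against 191 of 10390 protein-coding genes tested (1.84%). They are DKC1, NOP56, NOP58, NCL, WDR43, TSR1, GNL3, PPAN and URB1, with NOP56 holding 5 and GNL3 holding 6. The 9 hosts were all called higher, from 1.29-fold for NCL to 1.59-fold for PPAN. That is near the share of all 50 factors (96.0%), beside 23.2% of all genes tested. The table used here measures the host genes and not the small RNAs. Exons of 28 factors overlap another gene on either strand, among them NHP2, MYBBP1A, HEATR1, IMP3, RRP12, PNO1, NOB1, RRS1, NOP16 and URB1, whose values are uncertain to that extent. Beyond these, of the 22 factors without such overlap 21 were higher and 0 lower.

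Further genes of the pathway, 88 assembly factors outside the 50, were also mostly higher. Their list was chosen with earlier results of these data known, so it is not independent support. Of 87 tested, 73 were higher (83.9%), 1 was lower and 13 were not called (median 0.29 on the log2 scale), beside 23.2% higher over all genes tested. PAK1IP1, a large subunit assembly factor, rose from 9.22 ± 0.217 to 16.2 ± 0.834 FPKM and AATF, a small subunit factor, from 42.5 ± 0.394 to 63.1 ± 2.51 FPKM (SD, n = 3). The 1 lower gene was NOP53, a large subunit factor that recruits the exosome, which was at 114 ± 4.53 FPKM in NC and 81.0 ± 2.88 FPKM in sh-RAD51C (SD, n = 3; difference -0.49 in log2, limma adjusted p = 3.01e-06). Of 15 genes of the RNA polymerase I machinery tested, 8 were higher (53.3%) and 0 lower (median 0.17). Over all genes tested, 23.2% were higher and 26.2% lower. POLR1G and TAF1D were called with log2 fold changes of 0.75 and 0.41, while UBTF, at 0.08, was not called.

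The ribosomal protein genes, whose products these factors assemble, were mostly not called. Of 77 tested, 1 was higher (1.3%) and 12 were lower (15.6%), with a median of -0.04. Both shares were below those over all genes tested (23.2% higher, 26.2% lower). RPL13A and RPL3 were called lower at -0.33 and -0.22, and the 1 higher gene was RPS10, at 3.53 ± 0.825 FPKM in NC and 5.55 ± 0.701 FPKM in sh-RAD51C (SD, n = 3). RPS10 rested on 83 to 134 inferred reads in NC libraries and 155 to 199 in sh-RAD51C libraries. The median of the 77 genes was 587 FPKM in NC, and the reason for the low value of RPS10 was not tested. MYC was at 30.5, 30.3 and 32.3 FPKM in NC and at 50.6, 51.9 and 48.7 FPKM in sh-RAD51C, without overlap (a log2 difference of 0.68, limma adjusted p = 2.34e-07). Its part in the level of the factors was not tested.

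**Figure D5:**
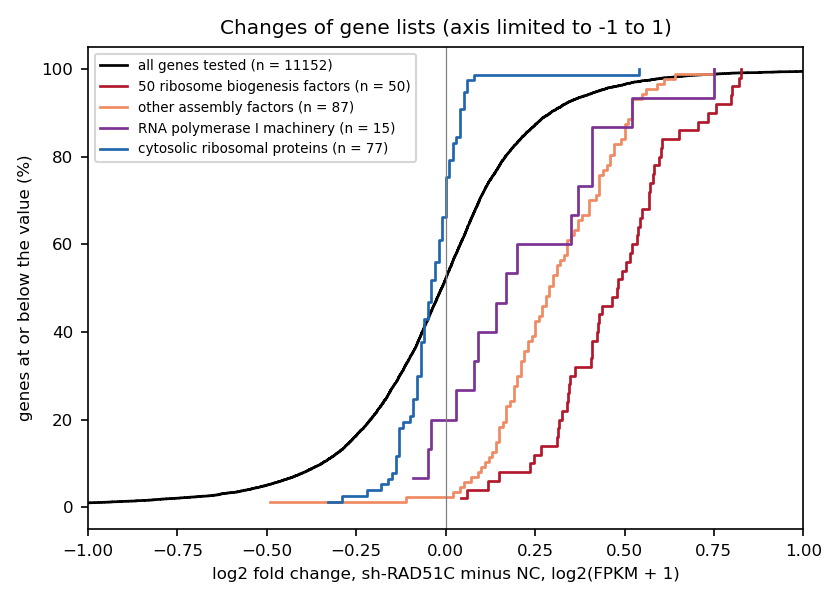
Share of genes (vertical axis, percent) at or below each log2 fold change (horizontal axis, sh-RAD51C minus NC) for the 50 factors, 87 other assembly factors, 15 genes of the polymerase I machinery, 77 ribosomal protein genes and all 11152 genes tested. The factor curve begins at 0.04 and lies to the right of the curve of all genes, whose median is -0.01, and the ribosomal protein curve rises steeply around -0.04.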

How the data were processed

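The authors deposited FPKM values for 23024 gene symbols in 6 libraries. The submitters' processing notes name hg38, R 3.2.0 and DESeq2 and give no role for the tools. Aligner, counting program, strand setting and annotation were not given in the sources used here, so values of overlapping genes and of near-identical copies are uncertain. The 6 columns were matched to libraries by title, leaving 0 unused.

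The 11152 genes averaging 1 FPKM or more were kept. Values were transformed to log2(FPKM + 1), which understates changes of low genes, and the difference of sh-RAD51C from NC was fitted in limma 3.58.1 under R 4.3.3, using the empirical Bayes trend and Benjamini-Hochberg adjustment over all genes kept, called at an adjusted p under 0.05. The fit was also run on simulated counts with known changes. These were drawn independently for each gene, without the length trends seen here, so they do not give the error rate in these data. Whole reads were inferred from the FPKM steps (within 0.001 reads for 100.0% of genes kept) and served for depth and one alternative. Positions came from GENCODE release 29 and promoters from RefSeq. Python 3.11.15 with scipy 1.17.1 was used otherwise. Values for every library were given, by role, for the 2 factors with the largest and the 1 with the smallest change, and for those not called. Others named with library values (NOP10, HEATR1, URB1), and UBTF, were chosen after their values were seen. The members and lists were chosen with earlier results of these data known.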

Additional observations from a re-analysis of the deposited data

How the results depend on the processing

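Between 45 and 49 of the 50 factors were called higher and 0 lower in each of the 16 alternatives over the whole list, with 45 without the filter on low values, and the median of the factors ran from 0.45 to 0.51. Leaving out single libraries gave 46 to 48. At a mean of at least 5 FPKM, PPAN and WDR12 fell below the filter and were not tested. Where tested, NOP10, NOB1 and HEATR1 were the factors that lost a call, NHP2 was the one that gained one, and no factor changed direction. Without the 28 factors whose exons overlap another gene, 21 were higher, because fewer genes were counted. At a mean of at least 5 FPKM, 1859 of all genes were lower in place of 2922, with fewer genes tested. Among the other assembly factors, 2 in place of 1 were lower with quantile normalization and with the replicate block; leaving out libraries gave 1 to 2. The cause was not tested. RAD51C stayed between -2.12 and -1.78. The removal of length and GC trends and the omission of overlapping genes were chosen after seeing the data. Replicate numbers are shared by the groups, but correlations of deviations between same-numbered libraries were 0.19, 0.026 and 0.091, so the numbers were not taken to pair libraries. A replicate block left 48 factors higher. Depth limited PPAN most, at 236 reads in its lowest library.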
